A study of Mus musculus with 8 samples.

Results

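Collagen chain genes were examined in mouse melanoma tumours that differed in whether the host could respond to tumour necrosis factor (TNF) and in whether they had been irradiated. The members were all genes whose array annotation symbol is Col, a number, a and a number, on a probe set annotated to 1 gene: 42 of 18193 genes with such a probe set, each represented by its brightest one. They were grouped as fibrillar (11 genes), type IV or basement membrane (6), type VI (5), fibril-associated with interrupted helices (FACIT, 9) and other collagens (11). Of the 42, 25 reached the level of signal at which genes were tested, as did 11345 of all genes.

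B16F1 cells, a melanoma line of C57BL/6 origin, were injected under the skin of the right hind limb of mice aged 8 to 12 weeks, with 5 to 7 mice of each host. The groups were irradiated tumours in mice lacking both TNF receptors (labelled TNFR 1, 2 -/-, host strain C57BL/6, bred from the stock B6;129S-Tnfrsf1a[tm1Imx] Tnfrsf1b[tm1Imx]/J and called TNFR KO here), untreated tumours in TNFR KO hosts, irradiated tumours in wild-type C57BL/6-NCr hosts (WT), and untreated tumours in WT hosts. Irradiation was a single dose of 20 Gy of X-rays to the tumour-bearing limb, and tumours were taken 5 h later and lysed whole. The RNA of each group was combined into 1 pool, giving 4 pools with duplicate hybridisations on Affymetrix mouse whole-genome arrays. The tumour cells carried their own receptor genes in every group. The host genotype therefore applies to the stroma and not to the melanoma cells, and a whole tumour holds RNA of both.

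Collagens are the main structural proteins of the extracellular matrix, built from alpha chains that wind around each other along repeats of glycine and other amino acids. Fibrillar collagens form the tensile fibres of connective tissue, type IV chains form the network of basement membranes under vessels and epithelia, type VI chains form beaded microfilaments close to cells, and FACIT collagens coat fibril surfaces. In tumours they are made largely by fibroblasts and vessel-associated cells and can be made by tumour cells too. In a bulk sample, fewer cells of a type and less RNA per cell cannot be told apart.

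Several facts of the arrays bear on every comparison. Values are MAS5 signals, the brightness of a probe set on a linear scale, scaled so that all arrays share 1 trimmed mean. Duplicate arrays correlated at 0.975 to 0.981 over probe sets, and arrays of different hosts at 0.955 to 0.964. Bacterial control transcripts with a poly-A tail, which are added to RNA before labelling (dap, lys, phe, thr), averaged 11.5, 21.8, 11.7 and 17.7 on TNFR KO arrays, against 18207, 2990.3, 5423 and 6848 on WT arrays, so host and target preparation cannot be told apart in any host comparison. On WT arrays the same controls read 1.61 (dap), 2.11 (lys), 2.1 (phe) and 2.03 (thr) times as high on irradiated as on untreated arrays, so radiation in WT hosts and the difference between radiation effects also moved with target preparation, whose part in them was not tested. The 18S ribosomal probe sets read 1.79 times as high on irradiated as on untreated arrays in TNFR KO hosts and 1.16 times in WT hosts. Tnfrsf1b, encoding TNF receptor 2, read 108 to 147 on the TNFR KO arrays and 157.5 to 451 on the WT arrays, while Tnfrsf1a, encoding TNF receptor 1, read 3279 to 4340 and 2653 to 3933, and whether these probe sets lie in the disrupted parts is not known here. All 8 melanocyte markers listed reached the level for testing and their host median over both treatments was 0.012 on the log2 scale. Mitf alone was called lower in TNFR KO hosts, as were 18.9% of all tested genes.

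The first comparison was that of the hosts, TNFR KO against WT, over both treatments. Of the 25 tested collagen genes, 15 were higher in TNFR KO hosts and 0 lower, where 12.0% of all tested genes were called higher and 18.9% lower. The 15 were Col1a1, Col1a2, Col3a1, Col5a1, Col5a3 and Col27a1 among fibrillar chains, Col4a1 and Col4a2, all 3 tested type VI chains (Col6a1, Col6a2, Col6a3), the FACIT gene Col12a1, and Col13a1, Col15a1 and Col18a1. The median log2 difference of the 25, TNFR KO minus WT, was 0.79, against 0.085 over all tested genes. By class the medians were 0.94 (fibrillar), 0.25 (type IV), 1.46 (type VI), 0.45 (FACIT) and 0.67 (other).

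Genes were called at a Benjamini-Hochberg adjusted p under 0.05 in limma, fitted to the 4 pool means as an additive model of host and radiation on the log2(signal + 16) scale. At an unadjusted p under 0.05, 20 collagen genes were higher and 1 lower. The error of this fit comes from how unequal radiation effects were in both hosts and holds no spread between animals. When genes of low signal were also tested, limma called 0 of 42 collagen genes, and 0 of all 18193 genes, at this threshold, with 19 collagen genes higher and 0 lower at an unadjusted p under 0.05; without WT untreated replicate 1 the count was 9 of 25. Quantile scaling left 12 calls, without Col1a1, Col3a1 and Col4a1, and median centring ended that of Col15a1. For Col12a1, Col13a1 and Col27a1 the mean of 1 or both WT pools lay below the level for testing, so those genes passed the filter through the TNFR KO pools. In 16 of the 25 genes all 4 TNFR KO arrays read above all 4 WT arrays, in 9 they overlapped and in 0 they read below, where 22.5% of all tested genes read above and 21.7% below.

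**Figure D1:**
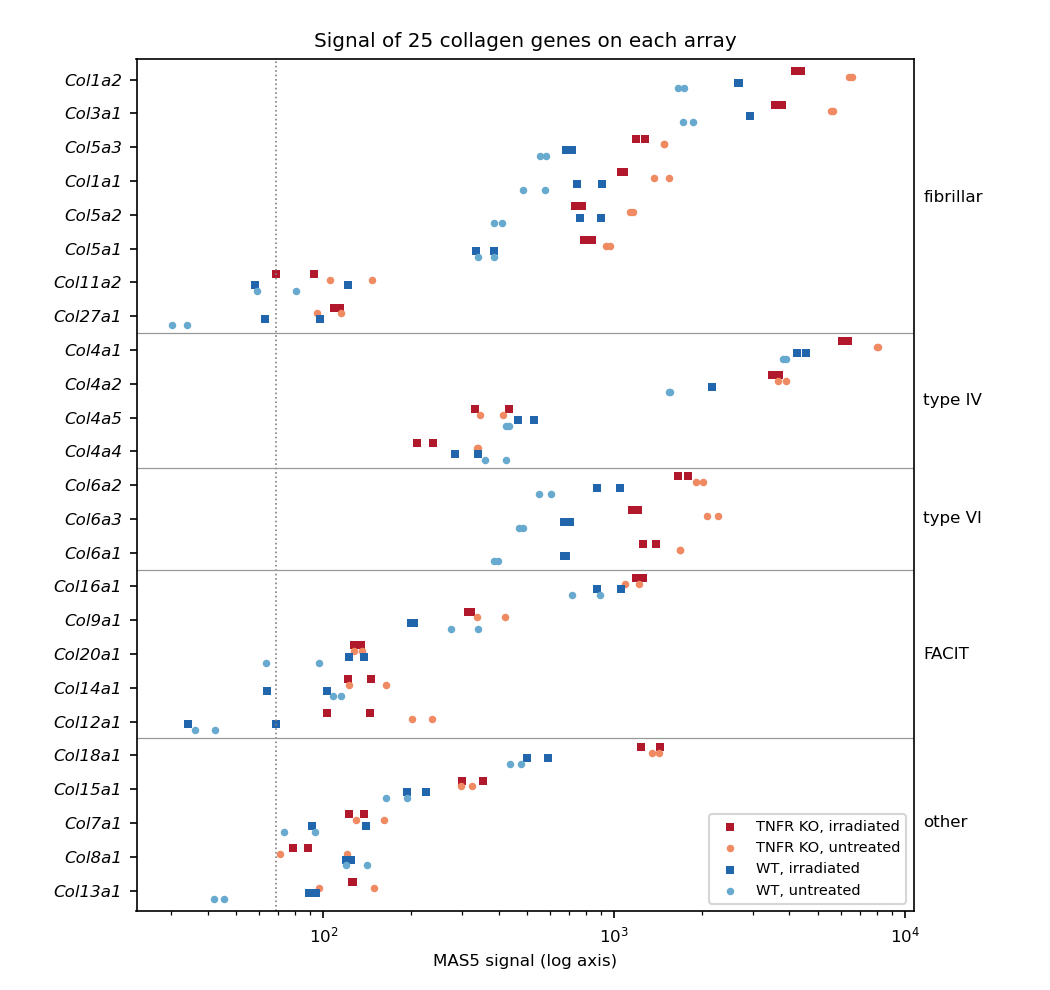
MAS5 signal (log axis) of the 25 tested collagen genes on each of the 8 arrays, by class; each point is 1 array and the dotted line is the level for testing, 68.8. In 13 of the 25 genes the pools run in the order untreated TNFR KO, irradiated TNFR KO, irradiated WT, untreated WT from high to low.

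The untreated TNFR KO pool had the highest mean in 18 of the 25 genes, and the untreated WT pool the lowest in 19. In 13 genes all 4 pools followed 1 order: untreated TNFR KO highest, then irradiated TNFR KO, irradiated WT and untreated WT. That order held in 6.39% of all tested genes. The 13 were Col1a1, Col1a2, Col3a1 and Col5a3, Col4a1 and Col4a2, Col6a1, Col6a2 and Col6a3, Col12a1 and Col20a1, and Col7a1 and Col18a1. The order rests on the brightest probe set of each gene, and another bright probe set broke it for Col3a1, Col4a1 and Col12a1. On these the host difference of Col3a1 was -0.15 in irradiated tumours. Irradiated minus untreated was 0.21 for Col4a1 in TNFR KO hosts and -1.57 for Col12a1 in WT hosts. The plot of signals by array shows this order gene by gene.

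Promoter sequences are shown for 4 genes that were higher in TNFR KO hosts, from the fibrillar, type IV and type VI classes, taken from RefSeq (GRCm38.p6) as windows of 300 bases that begin 250 bases before the annotated start. Of the 25 tested genes 21 had such a window; Col1a1, Col5a2, Col12a1 and Col14a1 had none. Capitals mark the letters searched on both strands: TATAAA for the TATA box, CCAAT for the CCAAT box, GGGCGG for the GC box and TGACTCA for an AP-1 site. No marked stretches overlap each other.
Col1a2: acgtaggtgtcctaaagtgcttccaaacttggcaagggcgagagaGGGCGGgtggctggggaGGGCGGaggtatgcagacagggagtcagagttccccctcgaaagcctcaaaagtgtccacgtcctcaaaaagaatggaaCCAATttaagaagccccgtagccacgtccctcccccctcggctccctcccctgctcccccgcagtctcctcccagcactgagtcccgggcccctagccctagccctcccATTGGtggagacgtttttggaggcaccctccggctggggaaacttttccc
Col3a1: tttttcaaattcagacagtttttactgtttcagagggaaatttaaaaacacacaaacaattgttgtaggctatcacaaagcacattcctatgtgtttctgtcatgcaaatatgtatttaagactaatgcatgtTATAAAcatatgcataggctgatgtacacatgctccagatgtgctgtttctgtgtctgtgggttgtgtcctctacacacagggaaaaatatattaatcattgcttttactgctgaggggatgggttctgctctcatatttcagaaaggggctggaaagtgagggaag
Col4a2: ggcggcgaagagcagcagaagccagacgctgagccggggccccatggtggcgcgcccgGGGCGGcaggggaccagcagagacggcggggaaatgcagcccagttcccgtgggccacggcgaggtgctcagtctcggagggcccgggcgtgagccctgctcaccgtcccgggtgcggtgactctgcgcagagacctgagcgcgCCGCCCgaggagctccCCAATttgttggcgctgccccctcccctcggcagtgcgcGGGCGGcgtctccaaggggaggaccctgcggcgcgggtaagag
Col6a1: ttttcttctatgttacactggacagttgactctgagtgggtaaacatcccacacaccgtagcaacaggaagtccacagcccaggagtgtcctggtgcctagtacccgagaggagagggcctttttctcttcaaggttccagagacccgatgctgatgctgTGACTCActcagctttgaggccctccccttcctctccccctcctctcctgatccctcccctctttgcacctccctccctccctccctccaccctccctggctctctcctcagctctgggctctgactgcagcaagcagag
These lie on the plus strand at chr6:4505368-4505667 (Col1a2), chr1:45311288-45311587 (Col3a1) and chr8:11312555-11312854 (Col4a2), and on the minus strand at chr10:76725995-76726294 (Col6a1). Col1a2 holds 2 GC boxes and 2 CCAAT boxes, Col3a1 a TATA box, Col4a2 3 GC boxes and 1 CCAAT box, and Col6a1 the AP-1 letters at bases 161 to 167 of its window. The Col4a2 window shares 78 bases with that of Col4a1, which is read from the opposite strand. Among the 13 genes with a window that were higher in TNFR KO hosts, 8 held a GC box, 5 a CCAAT box, 2 a TATA box and 1 the AP-1 letters. Among the 8 that were not called, 5 held a GC box, 4 a CCAAT box, 1 a TATA box and 0 the AP-1 letters. Over all 32851 windows the shares were 35.7% for the GC box, 37.4% for the CCAAT box, 13.6% for the TATA box and 5.2% for the AP-1 letters. A match is a description of these letters and not a site of binding.

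Fibrillar chains were described first. Type I collagen, the main fibre of skin and bone, is made from the products of Col1a1 and Col1a2. Col1a2 read 4366 and 4184 in irradiated and 6541 and 6409 in untreated tumours of TNFR KO hosts, against 2657 and 2688 in irradiated and 1730.3 and 1660.1 in untreated tumours of WT hosts. The 4 pools did not overlap, and the 2 untreated pools stood farthest apart, with the irradiated pools between them. In hosts lacking the receptors Col1a2 was 2.46-fold higher over both treatments (log2 difference 1.30 ± 0.25, adjusted p = 0.00365); the host difference was 0.67 in irradiated tumours, under the 2-fold limit set for single pools, and 1.92 ± 0.057 in untreated ones. The partner chain Col1a1 read 1076 and 1051 in irradiated and 1544 and 1366 in untreated tumours of TNFR KO hosts, against 904.5 and 745 in irradiated and 487 and 575.5 in untreated tumours of WT hosts. Its pools ran in the same order as those of Col1a2, with a smaller spread between pools (log2 difference 0.90 ± 0.23, adjusted p = 0.0144; 0.37 irradiated and 1.43 untreated). Other bright probe sets read likewise, at 0.32 irradiated and 1.72 untreated for Col1a2 and 0.55 irradiated and 1.51 untreated for Col1a1.

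Type III collagen, which forms fine fibres with type I in skin and vessels, is encoded by Col3a1. Col3a1 read 3572 and 3755 in irradiated and 5565 and 5664 in untreated tumours of TNFR KO hosts, against 2915.5 and 2915 in irradiated and 1727 and 1858 in untreated tumours of WT hosts. All TNFR KO arrays lay above all WT arrays, and the irradiated pools were much closer to each other than the untreated ones. The host difference was 0.33 ± 0.063 irradiated and 1.64 ± 0.063 untreated, and 1.98-fold over both treatments (adjusted p = 0.0164). A second bright probe set gave -0.15 irradiated and 1.00 untreated. The host call over both treatments was lost for Col3a1 without TNFR KO irradiated replicate 2 (0.97), TNFR KO untreated replicate 1 (0.99), TNFR KO untreated replicate 2 (0.98), WT irradiated replicate 1 (0.98), WT untreated replicate 1 (0.96) or WT untreated replicate 2 (1.01). For Col1a1 it was lost without TNFR KO irradiated replicate 2 (0.91), TNFR KO untreated replicate 1 (0.85), TNFR KO untreated replicate 2 (0.94), WT irradiated replicate 1 (0.97), WT untreated replicate 1 (0.84) or WT untreated replicate 2 (0.96), and for Col1a2 without WT untreated replicate 1 (1.31).

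The 3 type V genes, whose products sit inside type I fibrils and limit their width, did not move together. Col5a1 read 839 and 786 in irradiated and 938 and 964 in untreated tumours of TNFR KO hosts, against 334.5 and 385 in irradiated and 339.8 and 387 in untreated tumours of WT hosts. On this probe set the host difference was nearly as large in irradiated (1.14 ± 0.096) as in untreated tumours (1.35 ± 0.096), and both passed. The other bright probe sets set them further apart, at 0.94 and 1.18 irradiated and 1.59 and 2.32 untreated. Col5a2, which lies beside Col3a1 on chromosome 1, read 776 and 732.5 in irradiated and 1132 and 1157 in untreated tumours of TNFR KO hosts, against 899.8 and 763 in irradiated and 387 and 412 in untreated tumours of WT hosts. Its irradiated pools overlapped, while its untreated pools were far apart: the host difference was -0.13 ± 0.092 irradiated and 1.48 ± 0.092 untreated, and it did not pass over both treatments (0.67, adjusted p = 0.106). Col5a3 read 1184 and 1269.7 in irradiated and 1481 and 1477 in untreated tumours of TNFR KO hosts, against 683 and 712.5 in irradiated and 556 and 580.2 in untreated tumours of WT hosts, with the TNFR KO arrays 2.11-fold above the WT arrays (log2 difference 1.08 ± 0.18, adjusted p = 0.00178).

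Col27a1, a fibrillar chain of cartilage, was dim. It read 108 and 114 in irradiated and 94.9 and 115 in untreated tumours of TNFR KO hosts, against 96.9 and 62.7 in irradiated and 30.1 and 34.0 in untreated tumours of WT hosts. Its arrays overlapped between the hosts, and the untreated WT arrays were the lowest and below the level for testing (log2 difference 0.88 ± 0.21, adjusted p = 0.0108). With no pseudocount the host difference was 1.11 and with 64 it was 0.55, and a second bright probe set gave 0.22 irradiated and 0.54 untreated. The call ended without TNFR KO irradiated replicate 2 (0.86), WT irradiated replicate 2 (0.75), WT untreated replicate 1 (0.85) or WT untreated replicate 2 (0.91). Col11a2, a minor chain of cartilage fibrils, did not pass (0.32 ± 0.20), and the cartilage genes Col2a1 and Col11a1 and the gene Col24a1 were below the level for testing.

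In basement membrane collagen, the ubiquitous pair of chains differed between hosts and the other tested chains did not pass. Col4a1 read 6058 and 6342 in irradiated and 7989.6 and 8072 in untreated tumours of TNFR KO hosts, against 4548 and 4243 in irradiated and 3886 and 3808 in untreated tumours of WT hosts. Its pools did not overlap, and both TNFR KO pools lay above both WT pools. The difference was 0.49 irradiated and 1.06 ± 0.062 untreated, and 1.71-fold over both treatments (adjusted p = 0.00976; lost without WT untreated replicate 1 (0.78)). Col4a2 read 3668 and 3484 in irradiated and 3640.2 and 3887 in untreated tumours of TNFR KO hosts, against 2174 and 2164 in irradiated and 1542 and 1559.5 in untreated tumours of WT hosts. The 2 TNFR KO pools overlapped each other and both lay above the WT pools (log2 difference 0.99 ± 0.18, adjusted p = 0.00279). These are the genes that share a start region. A second bright probe set of Col4a1 gave 0.91 irradiated and 0.63 untreated, so for this gene the larger difference lay in untreated tumours on 1 probe set and in irradiated tumours on the other. Col4a4 and Col4a5, chains of kidney and other specialised basement membranes, differed by -0.32 ± 0.16 and -0.27 ± 0.16, and Col4a3 and Col4a6 were below the level for testing. Other bright probe sets gave 0.085 and -0.90 for Col4a4 and 0.043 for Col4a5.

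Type VI chains showed the highest class median. Their products assemble as a trimer of the Col6a1, Col6a2 and Col6a3 chains, which surrounds fat, muscle and stromal cells. Col6a1 read 1253 and 1386 in irradiated and 1686.5 and 1687 in untreated tumours of TNFR KO hosts, against 679.5 and 674 in irradiated and 384 and 397 in untreated tumours of WT hosts. The lowest TNFR KO array stood well above the highest WT array. It was 2.84-fold higher over both treatments (log2 difference 1.51 ± 0.24, adjusted p = 0.00122), and 4.19-fold higher in untreated tumours. Col6a2 read 1787 and 1651 in irradiated and 1908 and 2015.5 in untreated tumours of TNFR KO hosts, against 1045 and 870.4 in irradiated and 552 and 606 in untreated tumours of WT hosts. Again all TNFR KO arrays lay above all WT arrays, at 2.44-fold (adjusted p = 0.00155), and its second bright probe set gave smaller differences, 0.32 irradiated and 1.13 untreated. Col6a3, the largest chain, read 1206 and 1149.5 in irradiated and 2276 and 2077 in untreated tumours of TNFR KO hosts, against 672 and 705 in irradiated and 484 and 471 in untreated tumours of WT hosts. Untreated TNFR KO tumours stood apart from the other pools, by 2.15 ± 0.07 over untreated WT tumours, 4.44-fold. Col6a4 and Col6a5 were below the level for testing.

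Among FACIT collagens 1 of 5 tested genes passed. Col12a1, whose product links fibrils to surrounding matrix, read 144 and 103 in irradiated and 236 and 201 in untreated tumours of TNFR KO hosts, against 34.3 and 68.7 in irradiated and 42.5 and 36.2 in untreated tumours of WT hosts. All WT arrays were below the level for testing, so the gene entered the test through the TNFR KO pools and its size depends on the pseudocount, 1.90 with none and 1.08 with 64 (log2 difference 1.58 ± 0.22, adjusted p = 0.000722). Its second probe set put the larger difference in irradiated tumours, 1.96, against 0.44 in untreated ones. Col16a1, the FACIT gene with the highest signal, read 1187 and 1252 in irradiated and 1214 and 1090.5 in untreated tumours of TNFR KO hosts, against 869 and 1057.5 in irradiated and 714 and 895 in untreated tumours of WT hosts. Its TNFR KO arrays lay above its WT arrays by a small margin and it did not pass (log2 difference 0.43 ± 0.16, adjusted p = 0.0686). Col9a1, Col14a1 and Col20a1 differed by 0.45, 0.46 and 0.32 and did not pass either. A second bright probe set of Col9a1 gave 0.10.

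Of the remaining collagens, Col18a1 passed in irradiated and in untreated tumours. Its product is a heparan sulfate proteoglycan of vessel and epithelial basement membranes whose C-terminal fragment is endostatin. Col18a1 read 1431.5 and 1232 in irradiated and 1343 and 1429 in untreated tumours of TNFR KO hosts, against 593 and 501 in irradiated and 439 and 477 in untreated tumours of WT hosts. The lowest TNFR KO array was at over 2 times the highest WT array. It was 2.66-fold higher (log2 difference 1.41 ± 0.17, adjusted p = 0.000334), by 1.26 ± 0.11 irradiated and 1.57 ± 0.11 untreated, and a second probe set gave 0.97 irradiated and 1.77 untreated. Its relative Col15a1 read 298.5 and 353 in irradiated and 296 and 325 in untreated tumours of TNFR KO hosts, against 225.5 and 194 in irradiated and 193 and 164 in untreated tumours of WT hosts. Here too the hosts did not overlap, with a smaller difference (log2 difference 0.67 ± 0.16, adjusted p = 0.0109). Col13a1, a transmembrane collagen, read 126 and 126 in irradiated and 149 and 96.3 in untreated tumours of TNFR KO hosts, against 94.3 and 89.3 in irradiated and 45.5 and 41.9 in untreated tumours of WT hosts. The untreated WT pool was again the lowest (log2 difference 0.79 ± 0.20, adjusted p = 0.0142), and the call ended without TNFR KO irradiated replicate 2 (0.79), TNFR KO untreated replicate 1 (0.65), WT irradiated replicate 1 (0.81), WT untreated replicate 1 (0.81) or WT untreated replicate 2 (0.77). Col7a1, the anchoring fibril of skin, and Col8a1, a short-chain collagen of vessels, differed by 0.44 and -0.45 and did not pass, and a second bright probe set of Col8a1 had the opposite sign, 0.24 irradiated and 0.55 untreated.

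The 8 tested genes given here by their differences alone had signals of 58.2 to 528 over all arrays. The 17 genes below the level for testing were Col2a1, Col11a1 and Col24a1, Col4a3 and Col4a6, Col6a4 and Col6a5, Col9a2, Col9a3, Col19a1 and Col22a1, and Col8a2, Col10a1, Col17a1, Col23a1, Col25a1 and Col26a1. Their signals lay between 1.6 and 133 on single arrays. They include the defining collagens of cartilage, Col2a1 and Col10a1, and of the list of cartilage and bone markers 1 of 7 genes on the array reached the level for testing.

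Whether the host difference was the same with and without irradiation was examined next, by setting the hosts against each other within each treatment. In irradiated tumours 3 of 25 collagen genes were higher in TNFR KO hosts, Col5a1, Col12a1 and Col18a1, and 0 lower, at an adjusted p under 0.05 and at least 2-fold, where 0.793% of all tested genes were higher and 7.43% lower. In untreated tumours 15 were higher and 0 lower, where 2.06% were higher and 6.25% lower. At an unadjusted p under 0.05 in limma 16 were higher and 2 lower in irradiated tumours, and 19 and 0 in untreated ones. The median host difference of the 25 was 0.49 irradiated and 1.27 untreated, and the signed value, TNFR KO minus WT, was higher in untreated than in irradiated tumours for 23 of the 25, as for 50.9% of all tested genes. These tests rest on duplicate arrays of 1 pool per group, so they hold array noise only. The call on Col12a1 in irradiated tumours ended without TNFR KO irradiated replicate 1 (0.87) or WT irradiated replicate 1 (0.71), and that on Col13a1 in untreated tumours without TNFR KO untreated replicate 1 (0.91).

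**Figure D2:**
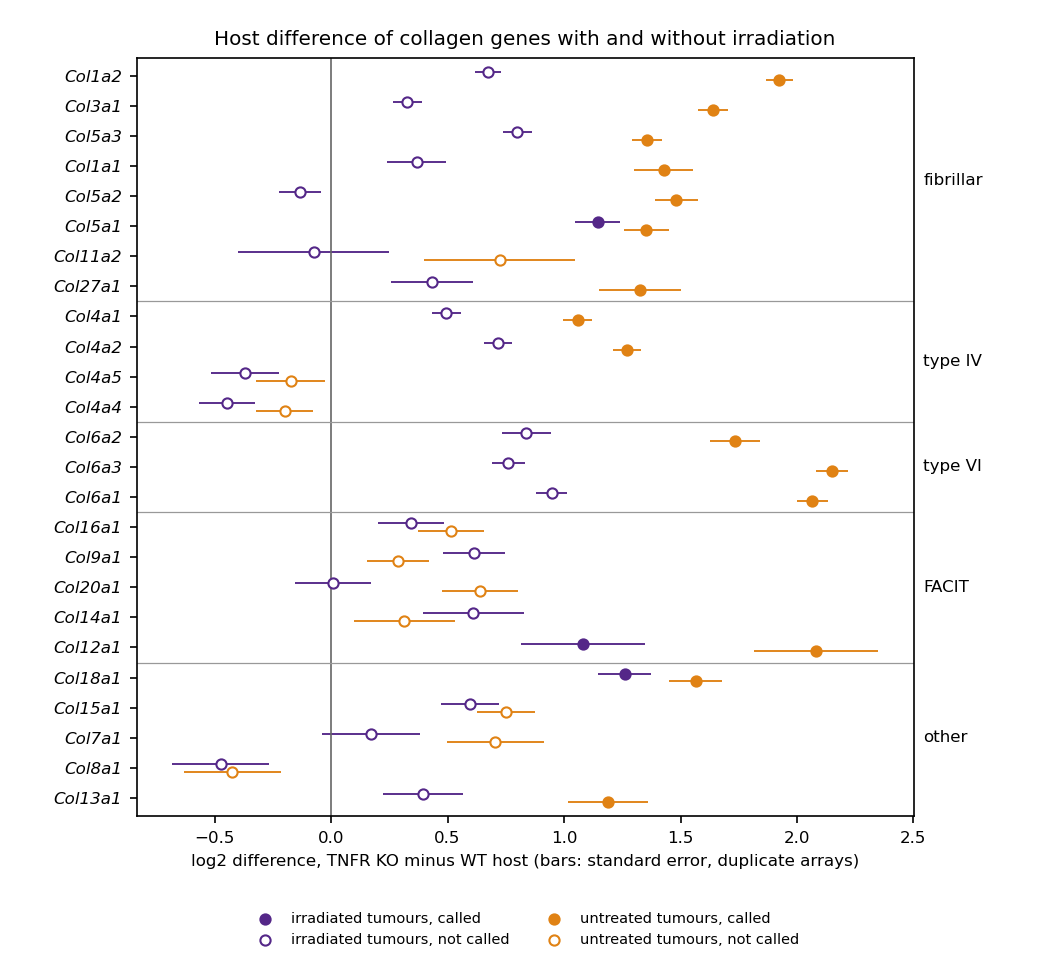
Host difference (log2, TNFR KO minus WT) of the 25 tested collagen genes in irradiated (purple) and untreated tumours (orange), with the standard error from duplicate arrays; filled points passed the test and the 2-fold limit. All tested fibrillar and type VI genes lie farther right in untreated tumours, while Col5a1, Col12a1 and Col18a1 pass in both.

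In most collagen genes the radiation values of the hosts had opposite signs, though few passed the test within a host. Averaged over both hosts 0 of 25 passed in either direction, where 1.55% of all tested genes were higher and 0.353% lower; 2 were higher and 2 lower at an unadjusted p under 0.05 in limma. In TNFR KO hosts the values of irradiated minus untreated tumours were negative in 20 of 25 genes, with a median of -0.22, and in WT hosts positive in 20 of 25, with a median of 0.29. In 15 genes the sign was negative in TNFR KO and positive in WT hosts, as in 18.3% of all tested genes. Of the 25, 0 passed in TNFR KO hosts, where 0.881% of all tested genes were higher and 0.485% lower, and 10 were lower and 0 higher at an unadjusted p under 0.05. In WT hosts 1 passed as higher, Col5a2 (1.02 ± 0.092; lost without WT irradiated replicate 1 (0.91) or WT untreated replicate 1 (0.98)), where 2.25% were higher and 0.203% lower; 13 were higher and 2 lower at an unadjusted p under 0.05.

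The difference between these radiation effects passed for 6 collagen genes, all lower in TNFR KO than in WT hosts, and for 0 in the other direction, where 2.05% of all tested genes were called lower and 0.159% higher. They were the interstitial chains Col1a1, Col1a2, Col3a1, Col5a2, Col6a1 and Col6a3. At an unadjusted p under 0.05 the counts were 14 lower and 0 higher. Col5a2 had the largest value: irradiated minus untreated was -0.59 ± 0.092 in TNFR KO and 1.02 ± 0.092 in WT hosts, a difference of -1.62 ± 0.13 (adjusted p = 0.00318). For Col6a3 the radiation effect was -0.88 ± 0.07 in TNFR KO and 0.51 ± 0.07 in WT hosts (difference -1.39 ± 0.099, adjusted p = 0.00263). Col3a1 gave -0.61 and 0.70 (difference -1.31 ± 0.089), Col1a2 -0.60 and 0.65 (-1.25 ± 0.081), Col6a1 -0.35 and 0.77 (-1.12 ± 0.095), and Col1a1 -0.44 and 0.62 (-1.06 ± 0.18). In each of these 6 genes both irradiated pools lay between the untreated TNFR KO and the untreated WT pool.

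The call on Col1a1 was lost without TNFR KO irradiated replicate 1 (-1.08), TNFR KO irradiated replicate 2 (-1.05), TNFR KO untreated replicate 1 (-0.97), TNFR KO untreated replicate 2 (-1.15), WT irradiated replicate 1 (-0.92) or WT untreated replicate 1 (-0.94). With arrays centred on their medians the median of all tested genes was -0.28 for radiation in WT hosts and 0.22 for the difference, against -0.02 and -0.0091 without centring; the collagen medians were then 0.032 and -0.34, 13 of 25 values were positive in WT hosts, and 4 of the 6 differences passed, those of Col1a1 and Col6a1 ending at -0.83 and -0.89. With the mean of all probe sets of a gene that of Col5a2 ended (-1.19, adjusted p = 0.0563), and with no filter on signal that of Col1a1 ended (adjusted p = 0.0825). Other chains gave smaller values: Col5a1 differed by -0.21 ± 0.14, Col18a1 by -0.31 ± 0.16 and Col15a1 by -0.15 ± 0.18, none of which passed. Col4a1 and Col4a2 differed by -0.56 ± 0.088 and -0.55 ± 0.087 (adjusted p = 0.0215 and 0.0216), under the 2-fold limit. A second bright probe set of Col4a1 had the opposite sign, 0.28.

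**Figure D3:**
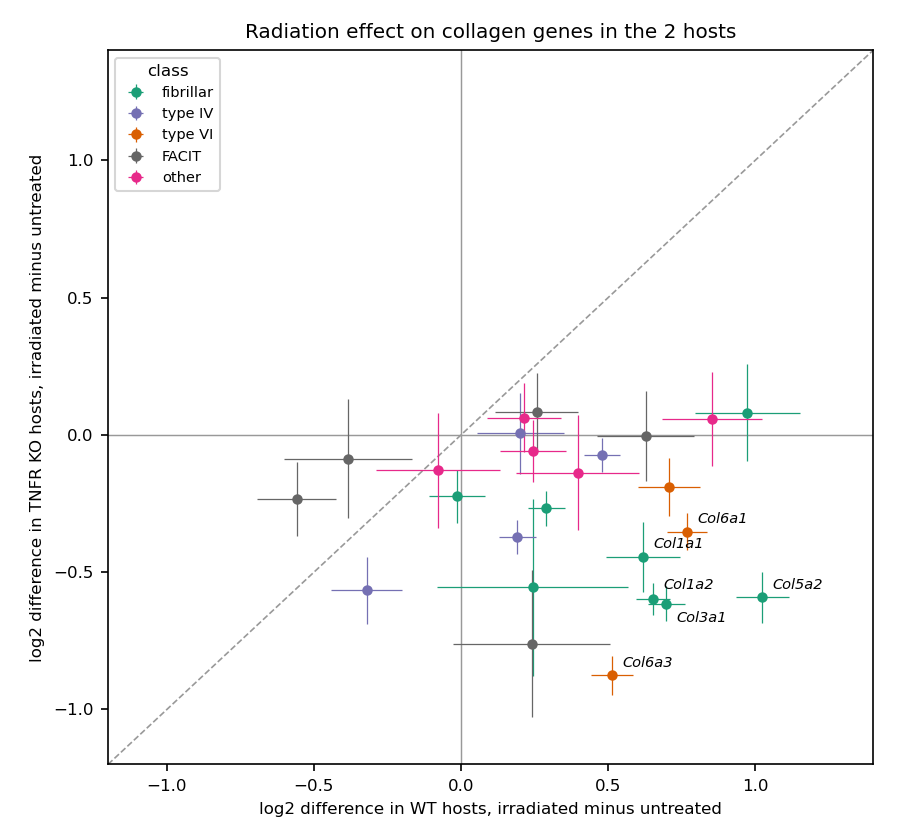
Radiation effect (log2, irradiated minus untreated) of the 25 tested collagen genes in TNFR KO hosts (vertical axis) and WT hosts (horizontal axis), coloured by class, with standard errors from duplicate arrays; points below the dashed line have the lower value in TNFR KO hosts. The 6 named genes, whose difference passed, lie at lower right, negative in TNFR KO and positive in WT hosts.

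Sums over lists of markers of several cell types differed between pools too. All counts of markers called here are over both treatments, where 12.0% of all tested genes were called higher and 18.9% lower. Of the fibroblast markers 3 of 6 tested (of 10 on the array) were higher and 1 lower in TNFR KO hosts. Their signals summed to 2111 to 2134 on irradiated and 3109.7 to 3224 on untreated TNFR KO arrays, against 2091 to 2162 on irradiated and 1536 to 1551 on untreated WT arrays. Pdgfra, Fap, Dpt and Pi16 were below the level for testing, none was listed at 0 on any array, and Dcn and Lum also stand in the list of fibril-associated proteins. Dpt read 143.3 and 133 in untreated TNFR KO tumours and 24.2 to 77.5 on the other arrays. Of the endothelial markers 3 of 7 tested (of 8 on the array) were higher and 0 lower in TNFR KO hosts over both treatments, with sums of 2297 to 2451 and 3057 to 3075 in irradiated and untreated TNFR KO tumours, against 2038 to 2088 and 1583 to 1618 in irradiated and untreated WT tumours. Pericyte and smooth muscle markers summed to 9025 to 9301 and 8796 to 8891 in TNFR KO tumours, against 5479 to 5703 and 4987 to 5155.5 in WT tumours, irradiated and untreated in each (3 of 6 higher and 1 lower). Fibroblast and endothelial sums thus were highest in untreated TNFR KO tumours and lowest in untreated WT tumours, as most collagens were. So were the keratinocyte and macrophage sums given next. Fibroblast members were split, with 3 of the 6 tested host differences positive and 3 negative. Dcn and Postn had their highest means in irradiated WT tumours (374 and 613) and Lum in untreated WT tumours (188). All 7 tested endothelial host differences were positive, but not all members followed the sum. In irradiated WT tumours Kdr and Tie1 had their lowest means (163 and 69.4) and Cldn5 its highest (336). Pecam1, Cdh5, Esam and Emcn were highest and lowest in the same pools as the sum. Keratinocyte markers summed to 811 to 814 and 2760.1 to 3103, against 579.5 to 649.9 and 385 to 399.5 (4 of 4 tested higher, of 8 on the array). Krt14, Krt1, Krt10 and Ivl were below the level for testing in their mean over all arrays. In untreated TNFR KO tumours, however, Krt1 read 398 and 398.6, Krt10 247.9 and 200.6, and Krt14 233.1 and 270.4. On the other arrays these read at most 39.6 (Krt1), 59.4 (Krt10) and 41.4 (Krt14). Krt6b read 959.9 and 1030.5 in untreated TNFR KO tumours and 8 to 74.4 on the other arrays. It therefore passed the filter through that pool alone. Krt5 and Sprr1a had means below the level for testing in untreated WT tumours too (44.35 and 67.95). Lrrc15, of the fibroblast list, read 32.5 to 77.1 on WT arrays and passed the filter through the TNFR KO pools. Macrophage markers summed to 3288 to 3328 and 5067 to 5204, against 3746 to 3880.3 and 2236 to 2276 (0 of 6 higher). Skeletal muscle markers ran the other way, at 701 to 704 and 1467 to 1555 in TNFR KO tumours, against 1074 to 1209 and 3422 to 3527 in WT tumours, with 5 of 6 lower. Of the adipocyte markers 0 of 1 tested passed, and of the Schwann cell markers 0 of 2 were higher and 1 lower. On single arrays S100b, of the Schwann cell list, read 5515 to 7514, and Mcam, of the pericyte list, 894 to 2789. Which cells made the listed transcripts, melanoma cells included, was not tested. The part of these cell types in the collagen differences was not tested either.

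Genes that make, export, trim, link and bind collagen were counted against the 12.0% of all tested genes called higher and 18.9% called lower over both treatments. Among enzymes that hydroxylate and glycosylate the chains, 2 of 13 tested genes were higher and 2 lower in TNFR KO hosts (median 0.36), shares near those of all tested genes. P3h1, a prolyl 3-hydroxylase of fibrillar chains, was higher (log2 difference 0.93 ± 0.17, adjusted p = 0.00257), whereas Plod2, the lysyl hydroxylase of the chain ends that form crosslinks, was lower (log2 difference -1.08 ± 0.17, adjusted p = 0.00127). Plod2 read 2264 and 2362 in irradiated and 2475 and 2506 in untreated tumours of TNFR KO hosts, against 5711 and 5405 in irradiated and 4655 and 4625 in untreated tumours of WT hosts, with every TNFR KO array below every WT array. P3h2, a prolyl 3-hydroxylase that acts on type IV chains, read 225 and 258 in irradiated and 721 and 713 in untreated tumours of TNFR KO hosts, against 297 and 365 in irradiated and 309.5 and 307 in untreated tumours of WT hosts. It was high in the untreated TNFR KO pool alone, and its radiation effects differed between hosts by -1.60 ± 0.16 (adjusted p = 0.00613).

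Chaperones and export factors of procollagen had 2 of 10 tested genes higher and 1 lower (median 0.061), where 12.0% of all tested genes were higher and 18.9% lower. Rcn3, a calcium-binding protein of the endoplasmic reticulum, and Sec24d, a coat protein of vesicles that carry procollagen, were higher (0.89 ± 0.17 and 0.70 ± 0.18), and Mia3, which loads procollagen into them, was lower (-0.53 ± 0.18). Of the enzymes that trim procollagen, Bmp1, which removes its C-propeptides, and Pcolce, which enhances that cleavage, were higher (0.92 ± 0.16 and 0.63 ± 0.18), 2 of 3 tested.

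Crosslinking genes included 2 of 4 tested genes whose radiation effects differed between hosts, both lower in TNFR KO hosts. In this comparison 2.05% of all tested genes were called lower and 0.159% higher. Lox, the lysyl oxidase that crosslinks collagen and elastin, read 45.7 and 40.0 in irradiated and 117 and 106 in untreated tumours of TNFR KO hosts, against 177.5 and 173 in irradiated and 78.5 and 64.7 in untreated tumours of WT hosts. Its irradiated TNFR KO arrays were the lowest and its irradiated WT arrays the highest. Radiation changed it by -1.12 ± 0.099 in TNFR KO and 1.13 ± 0.099 in WT hosts, a difference of -2.25 ± 0.14 (adjusted p = 0.00198). Both irradiated TNFR KO arrays and the untreated WT array that read 64.7 lay below the level for testing. The sizes of these log2 values for Lox therefore depend on the pseudocount. Tgm2, a transglutaminase, differed by -1.60 ± 0.092. Over both treatments Loxl1 and Loxl3 were higher in TNFR KO hosts (1.00 ± 0.20 and 0.49 ± 0.16), 2 of 4 tested genes, and 0 were lower.

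Fibril-associated proteins had 2 of 9 tested genes higher and 1 lower over both treatments. In the difference between radiation effects 4 of 9 passed, all lower in TNFR KO hosts, where 2.05% of all tested genes were called lower. Biglycan, Bgn, a small proteoglycan of fibrils, read 2050.2 and 1811 in irradiated and 2249 and 2229.5 in untreated tumours of TNFR KO hosts, against 1329 and 1176 in irradiated and 601 and 788 in untreated tumours of WT hosts. It followed the order of the type VI genes, with the untreated TNFR KO pool highest and the untreated WT pool lowest (log2 difference 1.15 ± 0.23, adjusted p = 0.00434). Decorin, Dcn, its relative that binds fibrils directly, read 129 and 179 in irradiated and 239 and 292 in untreated tumours of TNFR KO hosts, against 356 and 391 in irradiated and 191 and 157 in untreated tumours of WT hosts. Decorin did not follow them: irradiated WT tumours were highest and irradiated TNFR KO tumours lowest, and the radiation effects differed by -1.78 ± 0.25 (adjusted p = 0.0162). The collagen-binding protein Tgfbi and fibronectin, Fn1, differed in the same direction (-1.57 ± 0.16 and -1.23 ± 0.094).

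Collagen receptors had 0 of 8 tested genes higher and 1 lower, with 18.9% of all tested genes lower, the lower gene being Itga1, the integrin alpha chain of a type IV collagen receptor (log2 difference -0.89 ± 0.16, adjusted p = 0.00277). Other basement membrane genes, laminins, nidogens and heparan sulfate proteoglycans, had 2 of 9 tested genes higher and 0 lower: Lamb2 (0.54 ± 0.16) and Agrn (0.66 ± 0.16). Their median was 0.31, and -0.028 in irradiated and 0.52 in untreated tumours.

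**Figure D4:**
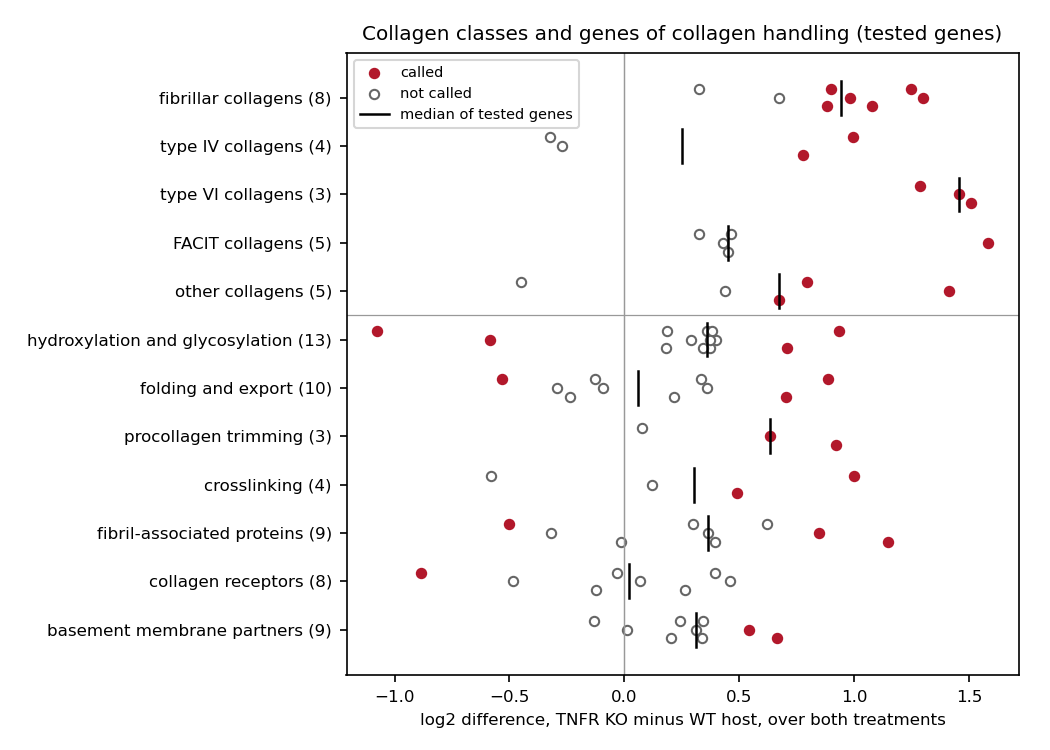
Host difference (log2, TNFR KO minus WT, over both treatments) of tested genes in the 5 collagen classes and in 7 lists of genes that make, trim, crosslink or bind collagen, with the number tested in brackets; each point is a gene, filled where it passed, and the line is the median. Type VI chains have the highest median, 1.46, and the receptors and export factors lie around 0.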

How the data were processed

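RNA of whole tumours, 1 pool per group, was labelled from 6 µg of total RNA and measured in duplicate per the labels' protocols. The deposited values are signal intensity from MAS5, the tool the submitters' processing notes give (no version); arrays share 1 trimmed mean. Precision is limited by how few arrays there are.

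The 45101 probe sets comprised 34945 with a single gene symbol, 932 with more, 9160 unnamed here and 64 controls; 34741 were found by gene identifier in a RefSeq table and 0 symbols changed. Signals were taken as log2(signal + 16), and genes whose mean reached 6.41 (a signal of 68.8), the median of non-control probe sets, were tested. R 4.3.3 and limma 3.58.1 were used, with matplotlib 3.10.9 for figures. The host and radiation effects were fitted together to 4 pool means (1 residual and 9.52 prior degrees of freedom, adjusted p under 0.05). Single-pool comparisons and the difference between radiation effects were fitted to 8 arrays (4 residual degrees of freedom) and also required 2-fold; all tests were two-sided. The comparisons share pools. Samples came from pooled tumours, so p-values hold no spread between animals. Replicate numbers did not pair the arrays (correlations of duplicate differences between pools of -0.032 to 0.052).

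The collagen genes and all lists were chosen with earlier results of these data known. Values by array are given for collagen genes called over both treatments or in the difference between radiation effects, and for the brightest tested gene of each class; of other lists, up to 3 called genes per comparison. Of 15, 12, 10, 6, 14, 12 and 12 genes listed for hydroxylation, export, trimming, crosslinking, fibril-associated proteins, receptors and basement membrane, 13, 10, 3, 4, 9, 8 and 9 were tested. Fits were tested on simulated data. Alternatives were other pseudocounts, quantile or median scaling, other filters, the mean of probe sets, limma-trend, 8-array fits with and without a replicate block, no fold limit, and leaving out each array.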

Additional observations from a re-analysis of the deposited data

Results flagged for a closer look

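The radiation effect differed between hosts for 6 collagen genes, in a test of the difference itself against duplicate arrays of 1 pool per group. As TNFR KO minus WT on the log2 scale, the values were -1.62 for Col5a2, -1.39 for Col6a3, -1.31 for Col3a1, -1.25 for Col1a2, -1.12 for Col6a1 and -1.06 for Col1a1. Macrophage, keratinocyte and fibroblast markers also differed in this way, with 5 of 6, 2 of 4 and 2 of 6 tested genes lower, as did 1 of 7 endothelial markers and the 1 adipocyte marker tested, where 2.05% of all tested genes were lower, and their part in the collagen values was not tested. Among the tested markers, Krt6b passed the filter through the untreated TNFR KO pool alone and Lrrc15 through the TNFR KO pools. Each group was 1 pool, so the test holds no spread between animals.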

How the results depend on the processing

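Of the 15 collagen genes called higher in TNFR KO hosts over both treatments, 0 passed when genes of low signal were also tested. With the 8 arrays taken as separate samples, with or without the replicate block, 2 other collagen genes, Col4a4 and Col8a1, were called lower in TNFR KO hosts, and 2, Col4a4 and Col9a1, lower after radiation over both hosts. The cause was not tested. Other bright probe sets of Col4a4 gave host differences of 0.085 and -0.90 over both treatments. For radiation, a second bright probe set of Col9a1 gave -0.69 in TNFR KO and 0.24 in WT hosts. The one used gave -0.23 and -0.56. Leaving out 1 array in turn gave 9 to 15 higher and 0 to 1 lower over both treatments, 2 to 3 higher in irradiated tumours, 14 to 15 higher in untreated tumours, 0 to 2 higher after radiation in WT hosts and 5 to 8 lower in the difference between radiation effects. The 1 gene higher after radiation in WT hosts became 3 with no pseudocount and 0 with 64, with median centring or with the mean of probe sets. In irradiated tumours 5 genes were higher without the filter. Without the fold limit 14 were higher and 1 lower in irradiated tumours, 8 lower after radiation in TNFR KO hosts, 12 higher and 1 lower in WT hosts, and 10 lower in the difference. Median centring moved the share of calls that were higher, over all genes, to 19.4% against 38.9% for host, 55.6% against 91.7% for radiation in WT hosts and 38% against 7.17% for the difference. None of the collagen calls changed sign under these alternatives. In untreated tumours the calls on Col13a1 and Col27a1 ended with a pseudocount of 64, that on Col13a1 with quantile scaling, those on Col13a1 and Col4a1 with median centring, and those on Col12a1, Col27a1 and Col4a1 with the mean of probe sets. In irradiated tumours that on Col12a1 ended with a pseudocount of 64 and with the mean of probe sets. With the replicate block the call on Col1a1 in the difference was lost (log2 difference -1.06, adjusted p = 0.0516).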

Other observations

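Of the 17 collagen genes below the level for testing, 2 were called when all genes were tested, and they were chosen here after their values were seen. In that setting 2.03% of all 18193 genes were called higher in TNFR KO hosts in untreated and 0.978% in irradiated tumours. Col25a1, a transmembrane collagen known from neurons, read 131 and 133 in irradiated and 95.1 and 83.9 in untreated tumours of TNFR KO hosts, against 15.2 and 51.5 in irradiated and 15.3 and 28.5 in untreated tumours of WT hosts. Both TNFR KO pools lay above both WT pools, by 1.69 in irradiated and 1.50 in untreated tumours on the log2 scale (adjusted p = 0.025 and 0.0404 in limma against duplicate arrays). A second, dimmer probe set of Col25a1 did not show this, at -0.021 in irradiated and -0.64 in untreated tumours. Col2a1, the main chain of cartilage, read 61.3 and 62.0 in irradiated and 40.4 and 58.1 in untreated tumours of TNFR KO hosts, against 19.7 and 4.5 in irradiated and 14.0 and 21.3 in untreated tumours of WT hosts, and was higher in irradiated TNFR KO tumours by 1.52 (adjusted p = 0.0156). At signals this dim the size of a log2 difference depends on the pseudocount.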
